A study of Homo sapiens with 17 samples.

Results

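The genes described here are the receptors, ligands and fringe glycosyltransferases of the Notch pathway in human endothelial cells that give rise to blood. They are 3 receptors (NOTCH1, NOTCH2 and NOTCH3), 4 ligands (DLL1, DLL4, JAG1 and JAG2) and 3 fringes (MFNG, LFNG and RFNG), 10 genes in all, found by symbol among the 58302 gene identifiers of the count tables and the 28285 identifiers of the TPM tables. NOTCH4 was not analysed here, because counts of its region on chromosome 6 are mostly missing. The choice of genes used no measured level of theirs, although results of these libraries were known when it was made.

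Notch receptors are cut and carried to the nucleus, in part, when a ligand on a neighbouring cell pulls on them, and the freed part joins the DNA-binding protein RBPJ to switch on target genes such as the HES and HEY repressors. Fringes add a sugar to the receptor in the Golgi and so change how well Delta-like and Jagged ligands activate it. In embryonic vessels the pathway is known for setting up arterial endothelium and for the step at which endothelial cells become blood stem and progenitor cells.

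All 17 libraries derive from the established embryonic stem cell line H1 and so describe 1 genetic background. Cells were endothelial cells positive for a GATA2/eGFP reporter, made without or with vitamin C (Vc- or Vc+), a cofactor of enzymes that strip methyl marks off DNA and histones. Freshly sorted cells gave 4 libraries, 2 without and 2 with vitamin C. A course of 10 libraries followed re-plated cells, 1 library without and 1 with vitamin C at each of 0, 24, 36, 48 and 60 h. From 24 h on, the labels call these mixtures of endothelial and blood cells. The labels give the condition in which the endothelium was made and do not say whether vitamin C was present after re-plating. From the arm with vitamin C, 3 further libraries held adherent cells at 60 h, suspended blood cells at 60 h and suspended blood cells at 96 h. The labels do not say whether any libraries came from separate cultures, so p-values measure the spread between these libraries, which may be technical.

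Counts are given as CPM, the reads of a gene scaled to a common library total, with 6214675 to 8794604 reads per course library, 8117075 in the adherent cells, and 6957056 and 11058345 in the suspended cells at 60 and 96 h. Summed levels of 10 endothelial marker genes were 7009 to 9014 CPM without and 7875 to 9519 CPM with vitamin C, and none of the 10 was at 0. Summed levels of 12 blood marker genes were 38.7 to 97.5 CPM without and 96.2 to 471 CPM with vitamin C, 129 CPM in the adherent cells, and 2340 and 9736 CPM in the suspended cells. Of these, PTPRC was at 0 in every course library without vitamin C and in the adherent cells, and MPO in all 10 course libraries. The 9 mesenchymal and smooth muscle markers summed to 711 to 1446 CPM without and 401 to 895 CPM with vitamin C. The 5 pluripotency markers summed to 214 to 485 CPM in the arm with vitamin C and to 218 to 530 CPM in the other, highest at 0 h in both, and to 488 CPM in suspended cells at 60 h. Nearly all of this came from LIN28B and DNMT3B, since POU5F1, NANOG and SOX2 were at or near 0 in these 13 libraries, while POU5F1 stood at 1.15 to 14.6 TPM in the sorted cells. For the 4 sorted libraries the titles and descriptions disagree on vitamin C in 2. The titles were used, and every statement on those cells depends on that choice.

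NOTCH1 (ENSG00000148400) lies at chr9:136494433-136545786, NOTCH2 (ENSG00000134250) at chr1:119911553-120069626, NOTCH3 (ENSG00000074181) at chr19:15159038-15200981, JAG1 (ENSG00000101384) at chr20:10637684-10673999, JAG2 (ENSG00000184916) at chr14:105140981-105168824 and DLL1 (ENSG00000198719) at chr6:170282206-170306565, all on the minus strand of GRCh38. DLL4 (ENSG00000128917) at chr15:40929333-40939073 and LFNG (ENSG00000106003) at chr7:2512529-2529177 are on the plus strand. MFNG (ENSG00000100060) at chr22:37469063-37486401 and RFNG (ENSG00000169733) at chr17:82047902-82051831 are on the minus strand. RFNG shares 835 exon bases, 21.6% of its exons, with GPS1 on the opposite strand, and the strand setting of the counting is not given in the sources used here, so RFNG values are uncertain. In JAG1 0.85% of the exon bases lie under an antisense gene.

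Promoter sequences of 8 of the 10 genes were found in the RefSeq table (GRCh38.p14). Of these, 4 are shown because the results turn on them: DLL4 and NOTCH1, whose levels moved together over the course, and JAG1 and JAG2, which stood on opposite sides of the vitamin C comparison. Each runs 5′ to 3′ on the strand of its gene, from 250 to 51 bases before the RefSeq start, and capitals mark CG dinucleotides, the bases that DNA methylation acts on.
DLL4 (chr15:40929090-40929289, plus strand): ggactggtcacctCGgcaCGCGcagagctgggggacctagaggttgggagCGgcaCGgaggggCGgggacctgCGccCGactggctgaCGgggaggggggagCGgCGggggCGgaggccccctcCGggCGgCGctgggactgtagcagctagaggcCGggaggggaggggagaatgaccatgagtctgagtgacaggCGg
NOTCH1 (chr9:136546099-136546298, minus strand): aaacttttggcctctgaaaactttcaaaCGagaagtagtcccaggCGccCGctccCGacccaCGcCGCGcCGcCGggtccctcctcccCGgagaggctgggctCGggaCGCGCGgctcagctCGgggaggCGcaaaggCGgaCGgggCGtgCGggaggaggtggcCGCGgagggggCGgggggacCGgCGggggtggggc
JAG1 (chr20:10674050-10674249, minus strand): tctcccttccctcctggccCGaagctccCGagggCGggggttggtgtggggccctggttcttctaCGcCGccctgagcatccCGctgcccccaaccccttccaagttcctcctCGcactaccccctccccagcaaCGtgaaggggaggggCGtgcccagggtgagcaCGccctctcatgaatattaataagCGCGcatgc
JAG2 (chr14:105168827-105169026, minus strand): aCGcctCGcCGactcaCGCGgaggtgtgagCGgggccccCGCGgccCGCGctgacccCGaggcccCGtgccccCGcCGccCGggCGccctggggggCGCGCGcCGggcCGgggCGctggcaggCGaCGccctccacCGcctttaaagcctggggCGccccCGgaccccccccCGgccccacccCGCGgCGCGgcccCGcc
These windows of 200 bases held 17 CG dinucleotides for DLL4, 25 for NOTCH1, 12 for JAG1 and 33 for JAG2, against a median of 8 over 35116 promoters. Fewer CG dinucleotides were found in 98.2% of promoters than in that of JAG2, and in 59.7% than in that of JAG1. The letters GTGGGAA of an RBPJ site, CACGTG of an E-box and AGATAA of a GATA site were searched on both strands and overlap nowhere with each other in these windows. None was present in the windows of the 8 genes, whereas 4.41%, 4.51% and 7.62% of all promoter windows of this length held them. This says only that these letters are not in these bases.

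Among the receptors, NOTCH1 was the most abundant per exon base in every library, and vitamin C went with less NOTCH2. NOTCH1 made up 88.2% ± 6.69 (SD over 5 times) of the receptor reads per exon base with vitamin C and 82.9% ± 7.31 without. NOTCH2 made up 4.08% ± 0.63 and 7.47% ± 0.79, and NOTCH3 7.71% ± 6.19 and 9.60% ± 6.97. With vitamin C the NOTCH3 share ran from 2.81% to 18.3% over the 5 times, a range that holds that of NOTCH2 (3.15% to 4.81%). Without vitamin C the NOTCH2 share was higher, at 6.25% to 8.42%.

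NOTCH1, the receptor most studied in arteries and in blood stem cell formation, stood at 553, 850, 965, 1078 and 1330 CPM without vitamin C at 0, 24, 36, 48 and 60 h. With vitamin C it stood at 614, 1009, 923, 1109 and 1104 CPM. The ranges overlap widely, with vitamin C higher at 3 of 5 times, and the fitted difference was 0.02 ± 0.07 (log2 ± SE, adjusted p = 0.942). NOTCH1 rose between 0 and 24 h, by 0.69 ± 0.11 over both conditions (adjusted p = 0.000538). Its straight-line change without vitamin C was 1.23 ± 0.21 on the log2 scale per 60 h (adjusted p = 0.0135), a call lost without the 0 h library (adjusted p = 0.157) or the 60 h library (adjusted p = 0.075). With vitamin C the slope of 0.81 ± 0.21 was not called (adjusted p = 0.0995), although DESeq2 called it (adjusted p = 0.0142), and the difference between the slopes was -0.42 ± 0.29 (adjusted p = 1).

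NOTCH2, a receptor found in many tissues, was lower with vitamin C at 5 of 5 times. It read 95.001, 115, 108, 178 and 203 CPM without and 62.2, 71.9, 50.03, 79.1 and 89.4 CPM with vitamin C from 0 to 60 h. Every library with vitamin C lay below every library without, and the fitted difference was -0.96 ± 0.10 (adjusted p = 0.000187). The fold with over without vitamin C was 0.655 at 0 h and 0.441 at 60 h. Reads of the related gene NOTCH2NLA came to 12 over all 13 libraries. Its relatives NOTCH2NLB, NOTCH2NLC and NOTCH2NLR were not found by symbol among the counts, so their reads were not checked. Mesenchymal marker levels, summed, were also lower with vitamin C at each time. Single markers could go the other way, as COL3A1 at 0 h (355 CPM with against 308 CPM without) and PDGFRB at 24 h (20.9 against 16.7 CPM). The part of these markers in the NOTCH2 result was not tested.

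Tested against all genes, 4 of the 9 genes with counts were called for vitamin C over the course: NOTCH2 and JAG1 lower, JAG2 and MFNG higher. Of all 16276 genes tested 5.87% were called, 2.5% higher and 3.37% lower. The median difference of the 9 was 0.02, against 0.01 over all genes, so that the genes called stood on both sides. A gene was called at an adjusted p below 0.05. The test holds the time point as a factor, and without that term JAG1, JAG2 and NOTCH2 were no longer called (adjusted p = 0.623, 0.405 and 0.179), while MFNG was.

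**Figure D1:**
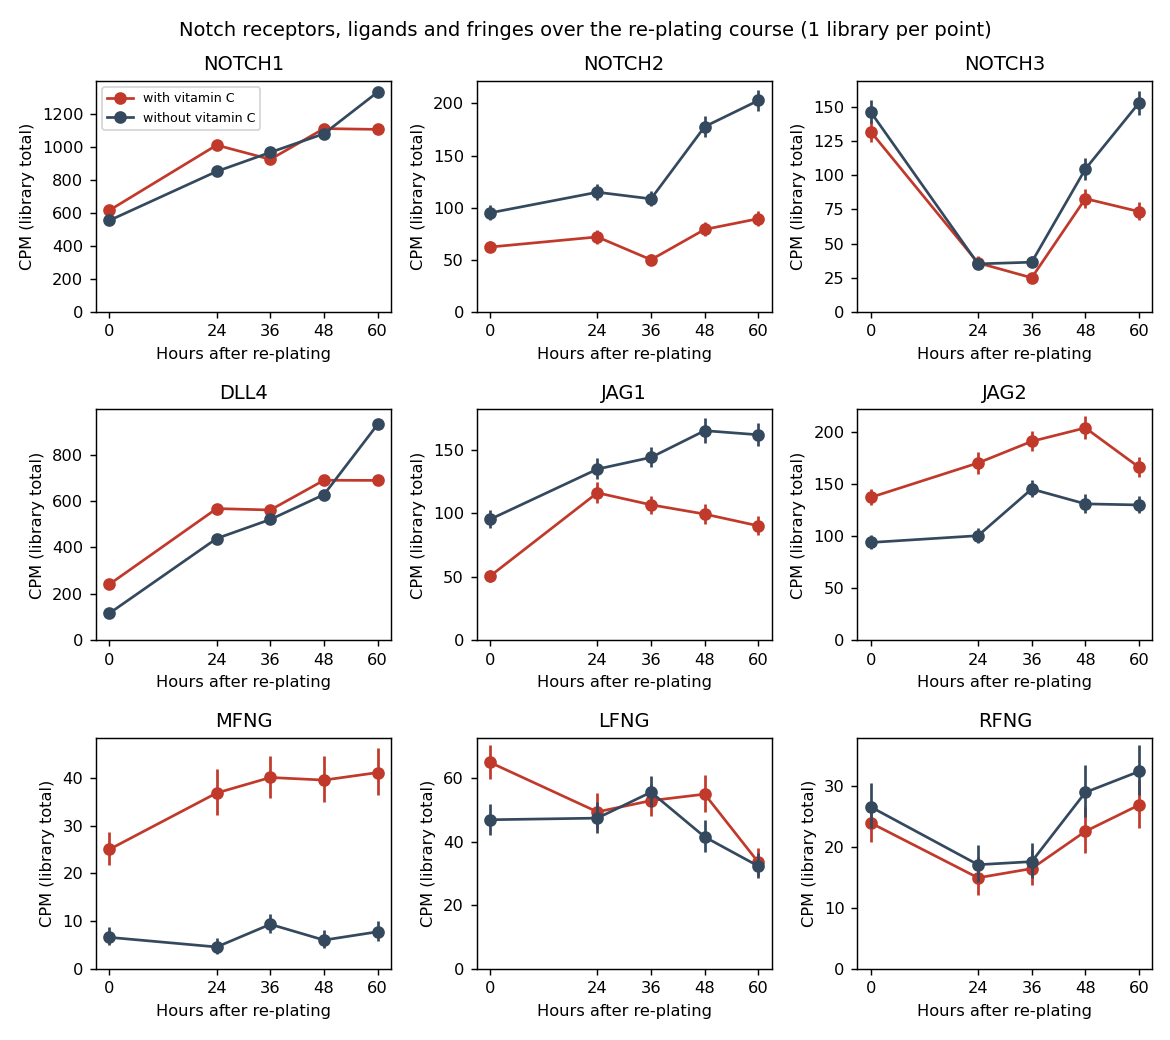
CPM of 9 genes (vertical axes, each from 0) against hours after re-plating, with red for cells made with vitamin C and dark blue for cells made without. Each point is 1 library and each bar its exact 95% Poisson interval, which covers counting error only. The 2 lines are apart at every time in NOTCH2 and MFNG, and NOTCH3 and RFNG dip at 24 and 36 h in both conditions.

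NOTCH3, the receptor of smooth muscle and pericytes, fell after re-plating and rose again. It read 146, 35.1, 36.4, 105 and 153 CPM without vitamin C and 132, 35.9, 25.0, 82.9 and 73.5 CPM with it. Between 0 and 24 h it fell by 1.95 on the log2 scale (SE 0.21, adjusted p = 2.85e-05). From 24 to 60 h, with the 0 h pair left out, it rose by 3.93 ± 0.66 per 60 h without vitamin C (adjusted p = 0.00124) and by 2.35 ± 0.69 with it (adjusted p = 0.0426). The difference of those slopes was -1.59 ± 0.96 (adjusted p = 1). Vitamin C libraries were lower at 4 of 5 times, and the difference of -0.43 ± 0.13 was not called (adjusted p = 0.0809), although 5 of 16 alternative settings called it. These were DESeq2 (adjusted p = 0.0359), no filter on low counts (0.000191) and leaving out the 0 h pair (0.0315) or either of its libraries. The settings without 0 h libraries are nearly the same check, since a library without its partner at that time carries no information on vitamin C.

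Over the step from 0 to 24 h, 5 of the 9 genes were called, NOTCH1, DLL4 and JAG1 higher and NOTCH3 and RFNG lower. This step moved many genes, and 33.3% of all genes tested were called, 16.2% higher and 17.2% lower. The venous markers, summed, went from 2658 to 932 CPM without vitamin C and from 2421 to 908 CPM with it over the same step. The largest part of this sum was NRP2, at 1727 and 483 CPM without vitamin C and 1202 and 454 CPM with it. NR2F2, at low levels, did not fall, with 9.05 and 10.8 CPM without and 2.30 and 4.02 CPM with vitamin C. The part of these markers in the changes was not tested. Since the libraries are bulk RNA, fewer cells of a type and less RNA per cell cannot be told apart.

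Among the ligands, DLL4 had the most reads per exon base in all 10 course libraries, JAG1 was lower and JAG2 higher with vitamin C, and DLL1 was not counted. DLL4 made up 74.5% ± 5.59 of ligand reads per exon base with vitamin C and 72.1% ± 13.2 without. JAG2 made up 18.9% ± 5.12 and 15.7% ± 8.18, and JAG1 6.64% ± 1.06 and 12.2% ± 5.05. Without vitamin C the share of JAG2 ran from 8.70% to 29.7% over the times and that of JAG1 from 7.47% to 20.8%. Per exon base JAG2 was above JAG1 in each of these libraries. With the longest coding transcript as length it was not at 24, 48 and 60 h.

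DLL4, the Delta-like ligand of arteries and of sprouting vessel tips, read 116, 439, 521, 628 and 931 CPM without vitamin C and 241, 568, 562, 690 and 689 CPM with it. The library with vitamin C was 2.07-fold higher at 0 h, 1.29-fold higher at 24 h and below the other at 60 h, where the fold was 0.74. Over all times the difference was 0.23 ± 0.15 and was not called (adjusted p = 0.442). It was called in 1 of 16 alternative settings, with no filter on low counts (adjusted p = 0.0057), and leaving out 1 library gave 0.037 (without the 0 h library with vitamin C) to 0.40 (without either 60 h library). DLL4 rose by 1.54 ± 0.23 between 0 and 24 h (adjusted p = 0.000377). The slope without vitamin C was 2.80 ± 0.43 per 60 h (adjusted p = 0.00881, and 0.103 without the 0 h library). The slope with vitamin C was 1.46 ± 0.42 and was not called (adjusted p = 0.124, by DESeq2 0.0134). Levels at 60 h were 8.001-fold those at 0 h without vitamin C and 2.86-fold with it, but the difference in slope of -1.34 ± 0.58 failed the correction (adjusted p = 1). The 9 arterial markers, none of them a gene described here, summed to 1133 CPM at 0 h and 4026 CPM at 60 h without vitamin C. With vitamin C they summed to 1862 and 3758 CPM. Not all of them rose between these times. SOX17 fell from 105 to 80.6 CPM without and from 235 to 107 CPM with vitamin C. BMX, at low levels, fell from 0.646 to 0.129 CPM without and from 0.804 to 0 CPM with vitamin C. The others rose in both conditions. The part of these markers in the change of DLL4 was not tested.

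From 24 to 60 h, DLL4 rose without vitamin C and did not pass the test with it. With the 0 h pair left out its slopes were 1.76 ± 0.23 per 60 h without vitamin C (adjusted p = 0.000201) and 0.51 ± 0.23 with it (adjusted p = 0.175). The difference was -1.25 ± 0.33 and failed the correction (adjusted p = 0.538). In that span 5 of 9 genes rose without vitamin C (NOTCH1, NOTCH2, NOTCH3, DLL4 and RFNG) and 2 rose with it (NOTCH3 and RFNG). Of 15602 genes tested, 8.63% rose and 7.68% fell without vitamin C (16.3% in all), and 6.41% rose and 5.22% fell with it (11.6% in all). No difference in slope of these genes was called, and 1 of all genes (0.00641%) had one.

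JAG1, a Jagged ligand of endothelium and smooth muscle, read 95.3, 135, 144, 165 and 162 CPM without vitamin C and 50.5, 116, 107, 99.4 and 90.2 CPM with it. It was lower with vitamin C at 5 of 5 times, with ranges that overlap, and the difference was -0.63 ± 0.10 (adjusted p = 0.00323). Mesenchymal and smooth muscle markers, summed, were lower with vitamin C at the same 5 times, 532 against 1446 CPM at 60 h. Their part in this difference was not tested. The gap was narrowest at 24 h, with a fold of 0.862, and widest at 0 h, with 0.53. JAG1 rose by 0.87 ± 0.16 between 0 and 24 h over both conditions (adjusted p = 0.00149).

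JAG2, the second Jagged ligand, read 93.8, 100.3, 145, 131 and 130 CPM without vitamin C and 137, 170, 191, 204 and 166 CPM with it. It was higher with vitamin C at 5 of 5 times, by 0.53 ± 0.08 overall (adjusted p = 0.0016). The fold lay between 1.28 at 60 h and 1.69 at 24 h, and 1 library without vitamin C, at 36 h, lay above the lowest one with it. JAG2 showed no call over time, with 0.23 ± 0.12 from 0 to 24 h (adjusted p = 0.167).

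DLL1, a Delta-like ligand, is listed at 0 counts in all 13 libraries, where 3 counts would be 0.271 to 0.483 CPM. In the sorted cells it stood at 10.4 and 2.91 TPM where vitamin C was absent and at 25.8 and 5.57 TPM where it was present. Its neighbour FAM120B had 0 to 12 counts per library against 21.6 to 33.4 TPM in the sorted cells, while PSMB1, also close by, had 843 to 1516 counts. The zeros of DLL1 are therefore given as listed and not read as absence.

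**Figure D2:**
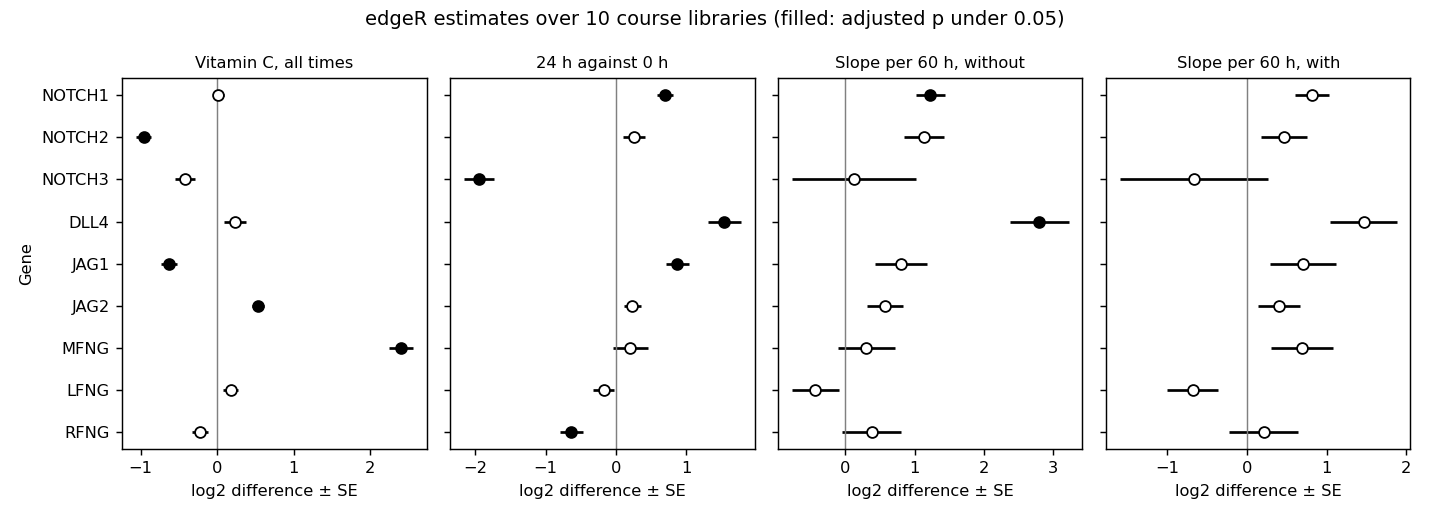
Estimates (horizontal axes, log2 difference, with bars of ± 1 SE) for the 9 genes in 4 comparisons over 10 course libraries: vitamin C at all times, 24 h against 0 h, and the change per 60 h without and with vitamin C. Filled points had an adjusted p below 0.05 in edgeR. MFNG stands at 2.40 in the vitamin C panel, and NOTCH3 at -1.95 and DLL4 at 1.54 lie on opposite sides of 0 in the panel for 24 h.

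Among the fringes, MFNG was present at a level several times higher with vitamin C, whereas LFNG and RFNG were not called. MFNG (manic fringe) read 6.59, 4.57, 9.32, 6.02 and 7.76 CPM without vitamin C and 25.0, 36.8, 40.1, 39.6 and 41.1 CPM with it. The lowest library with vitamin C was above the highest without, and the difference was 2.40 ± 0.16 (adjusted p = 8.44e-06). It was called under all 16 alternative settings. The fold was 3.80 at 0 h, 8.06 at 24 h, 4.30 at 36 h, 6.57 at 48 h and 5.30 at 60 h. MFNG did not pass the test over time, with 0.20 ± 0.25 from 0 to 24 h (adjusted p = 0.565) and slopes of 0.69 ± 0.39 with and 0.30 ± 0.41 without vitamin C (adjusted p = 0.491 and 0.765).

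Blood marker levels, summed, were also higher with vitamin C at each time, 123 against 90.5 CPM at 0 h and 471 against 97.5 CPM at 60 h. In the adherent cells, whose blood markers summed to 129 CPM, MFNG was 37.8 CPM, against 41.1 CPM in the whole culture at that time. The log2 ratio of adherent cells to whole culture was -0.12 (-0.35 to 0.11, a 95% interval for counting error only). Adherent cells and whole culture are each a single library here. What part blood markers had in the MFNG difference with vitamin C was not tested.

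LFNG (lunatic fringe) read 46.9, 47.4, 55.6, 41.5 and 32.3 CPM without and 65.0, 49.4, 52.9, 55.0 and 33.5 CPM with vitamin C. The ranges overlap, the difference was 0.18 ± 0.10 (adjusted p = 0.356), and the 60 h libraries were the lowest in both conditions. RFNG (radical fringe) read 26.6, 17.1, 17.6, 29.01 and 32.5 CPM without and 24.0, 14.96, 16.5, 22.6 and 26.9 CPM with vitamin C. It was lower with vitamin C at 5 of 5 times but by little, -0.22 ± 0.10 (adjusted p = 0.274). RFNG fell by 0.64 on the log2 scale between 0 and 24 h (SE 0.17, adjusted p = 0.0108), a call lost without the 24 h library without vitamin C (adjusted p = 0.0924) or the one with it. From 24 to 60 h it rose by 1.73 ± 0.40 per 60 h without vitamin C (adjusted p = 0.00916) and by 1.45 ± 0.42 with it (adjusted p = 0.0368).

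Of the 3 fringes, MFNG took a larger part of the reads in each course library with vitamin C than in any without. It took 37.3% ± 7.56 (SD over 5 times) of fringe reads per exon base with vitamin C and 10.3% ± 2.27 without, with ranges of 24.6% to 44.6% and 7.59% to 12.8%. LFNG took 46.0% ± 8.75 and 60.2% ± 9.59, and RFNG 16.8% ± 4.27 and 29.5% ± 8.98.

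Ratios of 2 genes within a library do not depend on its scaling. They were chosen with the differences above known, so their direction is no separate support. JAG2 over JAG1 was 0.744 to 1.01 in reads without vitamin C and 1.46 to 2.71 with it. MFNG over LFNG was 0.0964 to 0.24 without and 0.385 to 1.23 with vitamin C. NOTCH1 over NOTCH2 was 5.82 to 8.90 without and 9.87 to 18.4 with it. In these 3 ratios the conditions did not overlap. DLL4 over JAG1 overlapped, with 1.22 to 5.75 against 4.78 to 7.64. All 4 were higher with vitamin C at 5 of 5 times, by a mean log2 difference of 1.17 ± 0.26 (SD over 5 times) for JAG2 over JAG1, 2.25 ± 0.53 for MFNG over LFNG, 0.97 ± 0.17 for NOTCH1 over NOTCH2 and 0.87 ± 0.63 for DLL4 over JAG1. An exact two-sided sign permutation test over the 5 pairs gave p = 0.0625 for each ratio (0.0625 after adjustment over the 4), the smallest it can give, so it could not reach 0.05.

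**Figure D3:**
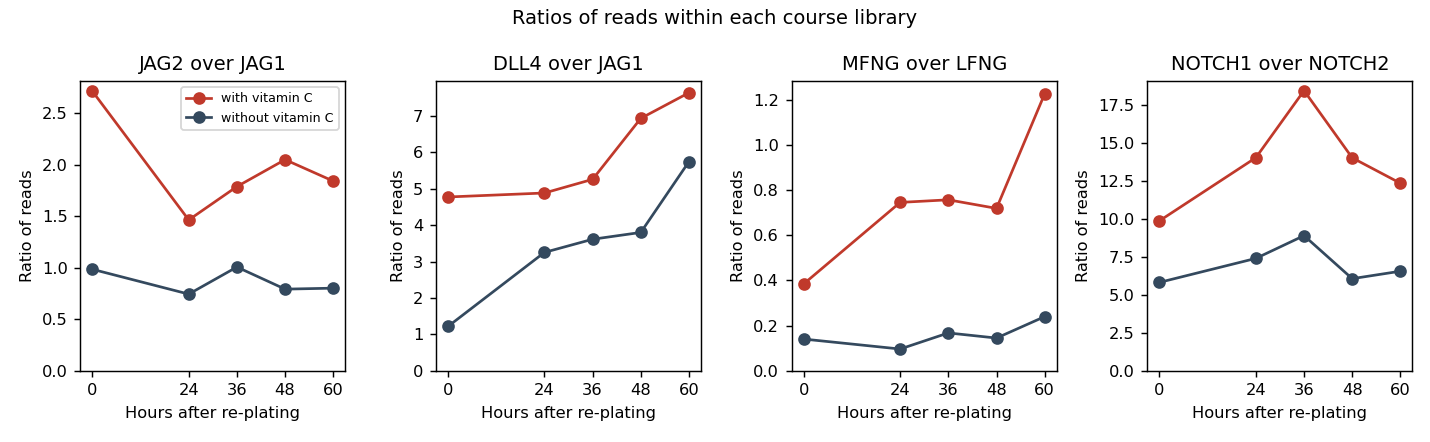
Ratios of reads of 2 genes within each course library (vertical axes, from 0) against hours after re-plating, red with and dark blue without vitamin C, 1 library per point. The red line is above the blue line at each of the 5 times in all 4 panels, and JAG2 over JAG1 stays at or below 1.01 without vitamin C.

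In the freshly sorted cells none of the 10 genes was called, and no gene of the 14421 tested was (limma, 0%). Unadjusted, 313 genes had p below 0.05, and a replicate block called none either. Without vitamin C, MFNG read 17.7 TPM in one library and 19.9 TPM in the other. With it, MFNG read 35.1 and 85.8 TPM, so that the groups did not overlap. Its difference on the log2(TPM + 1) scale was 1.499 ± 0.47 (adjusted p = 1 by limma), and it was 0.87 without replicate 2 with vitamin C, 2.13 without replicate 1 with vitamin C, and 0.71 with the groups of the descriptions. DLL4 stood at 252 and 179 against 604 and 229 TPM, with overlap and 1 library far above the rest. NOTCH1 stood at 148 and 111 against 201 and 108 TPM, NOTCH2 at 45.0 and 25.9 against 34.2 and 13.2 TPM, and NOTCH3 at 34.3 and 19.9 against 32.9 and 18.1 TPM.

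The other ligands and fringes of the sorted cells overlapped between the conditions. JAG1 stood at 36.3 and 32.3 against 33.2 and 22.6 TPM (without against with vitamin C), and JAG2 at 60.8 and 41.6 against 83.1 and 56.0 TPM. LFNG stood at 72.4 and 43.2 against 75.3 and 48.3 TPM, and RFNG at 52.4 and 30.0 against 60.8 and 40.1 TPM. Replicate 1 was above replicate 2 in both conditions in all 10 genes except MFNG. Per length, DLL4 made up 70.1% and 70.0% of ligand TPM without and 81.0% and 73.1% with vitamin C, and NOTCH1 65.1% and 70.7% against 75.0% and 77.5% of receptor TPM. MFNG made up 12.4% and 21.4% of fringe TPM without and 20.5% and 49.2% with vitamin C, which overlap.

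Ratios within sorted libraries, as titled, did not overlap between the conditions, and no test was made. JAG2 over JAG1 was 1.67 and 1.29 in TPM without and 2.50 and 2.48 with vitamin C. NOTCH1 over NOTCH2 was 3.28 and 4.28 without and 5.87 and 8.15 with it. MFNG over LFNG was 0.245 and 0.461 against 0.466 and 1.77, and DLL4 over JAG1 6.94 and 5.55 against 18.2 and 10.1. By the descriptions the libraries of replicate 1 form one group and those of replicate 2 the other, and each of these ratios then overlaps. JAG2 over JAG1 was 1.67 and 2.50 against 1.29 and 2.48, and NOTCH1 over NOTCH2 3.28 and 5.87 against 4.28 and 8.15. MFNG over LFNG was 0.245 and 0.466 against 0.461 and 1.77, and DLL4 over JAG1 6.94 and 18.2 against 5.55 and 10.1.

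**Figure D4:**
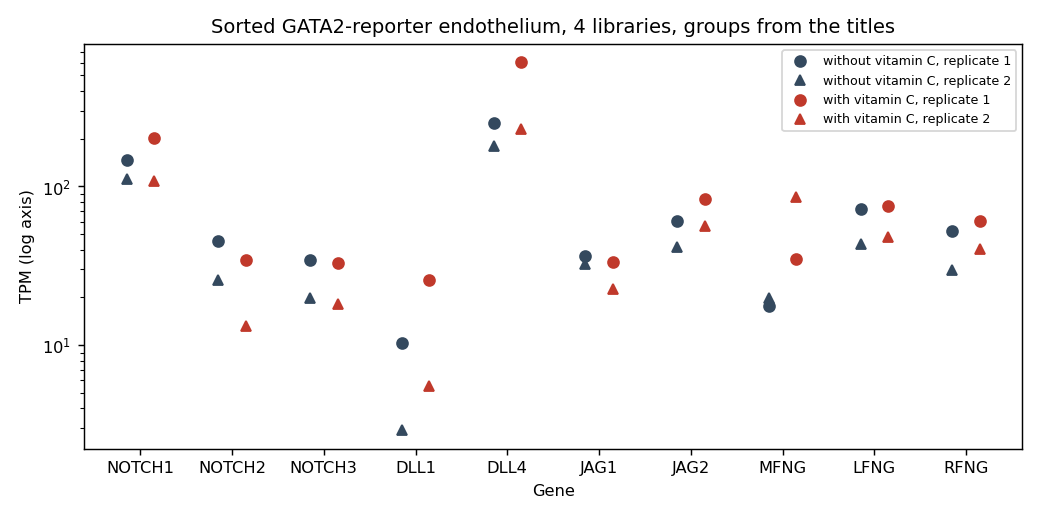
TPM of the 10 genes (log axis) in the 4 libraries of sorted cells, dark blue without and red with vitamin C by title, circles for replicate 1 and triangles for replicate 2. The 2 red MFNG points at 35.1 and 85.8 TPM lie above both blue ones at 17.7 and 19.9 TPM, and replicate 1 is above replicate 2 in the other genes.

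Suspended blood cells held far fewer reads of 3 ligands than adherent cells of the same time, and about the same share of MFNG reads. Each of these groups is 1 library, so no test was made, and each log2 ratio (with 0.5 CPM added) has a 95% interval from its 2 Poisson counts by a normal approximation. Folds are plain ratios of CPM. At 60 h, 6 of the 9 genes lay at least 2-fold below their adherent level in suspension and none 2-fold above it. Of 12705 genes 26.9% were that far apart, 14.6% lower and 12.3% higher. With library totals scaled by TMM, the median over all genes moved from 0.14 to 0.02 and the split from 1557 higher and 1856 lower to 1281 and 2053, and 6 of the 9 genes were still 2-fold lower. The median log2 ratio of the 9 was -2.02, against 0.14 over all genes. Endothelial markers summed to 1951 CPM in the suspended and 9772 CPM in the adherent cells, and their part in these differences was not tested.

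Among the ligands, DLL4 read 872 CPM in adherent and 86.7 CPM in suspended cells, 10.1-fold lower. JAG2 read 220 and 40.2 CPM, 5.45-fold lower, and JAG1 102 and 19.8 CPM, 5.12-fold lower. Among the receptors, NOTCH1 read 1235 and 304 CPM, 4.06-fold lower, and NOTCH3 98.1 and 44.8 CPM, 2.19-fold lower. NOTCH2 read 94.9 and 89.5 CPM, a log2 ratio of -0.08 whose interval of -0.24 to 0.07 holds 0. LFNG read 47.9 and 9.77 CPM, 4.90-fold lower. MFNG read 37.8 and 43.4 CPM, a log2 ratio of 0.20 (-0.03 to 0.43), and RFNG 28.5 and 27.6 CPM.

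At 96 h the 3 ligands were lower again in suspended cells. Endothelial markers summed to 893 CPM there, against 1951 CPM at 60 h, and arterial markers to 178 against 555 CPM. Single markers moved unlike these sums. PECAM1 rose from 439 to 559 CPM and EMCN from 5.46 to 13.3 CPM, while CDH5 fell from 194 to 4.25 CPM and KDR from 694 to 81.1 CPM. Of the arterial markers GJA4 rose from 77.3 to 136 CPM, and the others fell or stayed at 0. The part of these markers in the differences below was not tested. DLL4 was at 2.08 CPM from 23 reads, 41.7-fold lower than at 60 h, with a log2 ratio of -5.08 (-5.68 to -4.48). JAG1 was at 5.34 CPM (3.72-fold lower) and JAG2 at 13.2 CPM (3.05-fold lower). NOTCH1 was at 88.9 CPM (3.42-fold lower), NOTCH3 at 17.5 CPM (2.57-fold) and NOTCH2 at 42.0 CPM (2.13-fold). MFNG was higher, at 69.3 CPM, 1.60-fold the level at 60 h, and RFNG was at 28.9 CPM with a log2 ratio of 0.07 (-0.19 to 0.33). LFNG was at 4.79 CPM (2.04-fold lower as a plain ratio), with a log2 ratio of -0.96 (-1.48 to -0.44). By log2 ratio 6 of the 9 genes were at least 2-fold lower at 96 h, LFNG not among them, and none was 2-fold higher. Of 12405 genes 10.5% were lower by that much, 5.54% were higher and 16.1% were either. With library totals scaled by TMM, the median over all genes moved from -0.19 to 0.02 and the split from 687 higher and 1308 lower to 900 and 990. Of the 9 genes 5 were then 2-fold lower, since NOTCH2 stood at -0.87, and MFNG stood at 0.88.

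The makeup within each class shifted with these levels. Per exon base, MFNG took 36.8% of fringe reads in adherent cells, 58.8% in suspended cells at 60 h and 71.9% at 96 h. DLL4 took 80.2%, 68.4% and 14.2% of ligand reads, and JAG2 15.03%, 23.6% and 67.1%. NOTCH1 took 88.1%, 74.4% and 66.3% of receptor reads, while NOTCH2 took 4.18%, 13.5% and 19.3%. Between adherent cells and the whole culture with vitamin C at 60 h, none of the 9 genes was 2-fold apart, where 2.31% of 12222 genes were, 0.54% higher and 1.77% lower. LFNG (0.51, 0.27 to 0.74), NOTCH3 (0.41, 0.25 to 0.58), JAG2 (0.40, 0.30 to 0.51) and DLL4 (0.34, 0.29 to 0.39) were nonetheless higher in the adherent cells by more than counting error, as log2 ratios.

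**Figure D5:**
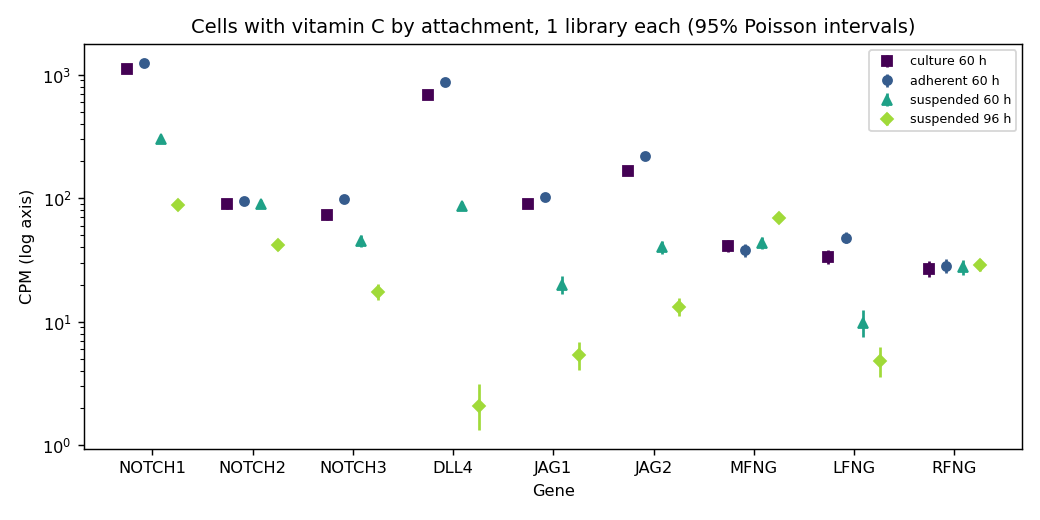
CPM (log axis) of 9 genes in 4 libraries of cells made with vitamin C: the whole culture at 60 h, adherent cells at 60 h, and suspended cells at 60 and 96 h. Each point is 1 library with its exact 95% Poisson interval. DLL4 drops from 872 CPM in adherent to 2.08 CPM in suspended cells at 96 h, while MFNG lies between 37.8 and 69.3 CPM.

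The rest of the pathway was described by 7 lists of 61 genes that hold none of the 10, for receptor cleavage, receptor sugars, ligand uptake, receptor turnover, the nuclear complex, other ligands and targets. For vitamin C over the course, 0 of the 56 genes tested were called by edgeR, and the median difference was -0.07, against 0.01 over all genes. The nearest to the threshold was DTX1, a ubiquitin ligase of the Deltex family, at -0.81 ± 0.23 (adjusted p = 0.0559). Of the 6 targets, 4 had a positive difference and none was called. In the sorted cells 0 of 56 were called by limma, where no gene was.

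Between 0 and 24 h, 33.3% of all genes were called, 16.2% higher and 17.2% lower. Of the 56 pathway genes 37.5% were called, close to that share, 11 higher and 10 lower. By smallest p these were DTX3, a Deltex family member, which fell by 3.31 (SE 0.37) on the log2 scale, the endocytic kinase AAK1 (1.21 ± 0.14), the secreted endothelial protein EGFL7 (0.58 ± 0.08), the target HES1, which fell by 1.38 (SE 0.23), and the ubiquitin ligase NEDD4 (0.63 ± 0.11). Of the 6 targets 3 rose and 1 fell. DTX3 went from 22.7 to 1.83 CPM without and from 24.2 to 2.90 CPM with vitamin C. HES1 went from 204 to 55.8 CPM without and from 91.3 to 52.1 CPM with it.

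Along the straight-line fit without vitamin C, 4 of 6 targets rose and 1 fell, and 8 of all 56 pathway genes rose and 1 fell, where 2.15% of all genes rose and 2.13% fell. HES4 rose by 3.44 ± 0.27 per 60 h, DTX1 by 5.09 ± 0.52, NRARP, a feedback inhibitor of Notch, by 3.19 ± 0.35 and HEY1 by 1.98 ± 0.27, and HES1 fell by 2.53 (SE 0.30). With vitamin C 3 rose, DTX1 by 3.94 ± 0.50, HES4 by 1.58 ± 0.25 and DTX3L by 3.04 ± 0.49, and none fell, where 0.915% of all genes rose. Of the 10 genes described here, NOTCH1 and DLL4 were called without vitamin C and none with it, and 4.28% and 1.78% of all genes were. The difference between the slopes was called for 0 of 16276 genes by edgeR and 11 by DESeq2, with 473 at an unadjusted p below 0.05.

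In suspended against adherent cells at 60 h, 13 of 51 pathway genes with at least 5 CPM were 2-fold lower by log2 ratio and 1 was 2-fold higher. Of all genes 14.6% were that much lower and 12.3% higher. Taking those that reached 20 CPM in one library or the other, the targets HEY1 (7.71-fold) and HEY2 (6.26-fold) and the turnover gene DTX1 (6.82-fold) were the furthest below. Above were DLK1, a non-canonical ligand, at 648 against 55.2 CPM (11.7-fold), and the acetyltransferase KAT2B (1.95-fold). From 60 to 96 h in suspension, 6 of 48 were 2-fold lower and 2 were 2-fold higher, where 10.5% of all genes were lower and 5.54% higher. Of those that reached 20 CPM, HEY1 at 32.3 and then 0.723 CPM (44.7-fold), HES4 (3.59-fold) and HES1 (2.40-fold) were the furthest below. At 96 h 3 counts would be 0.271 CPM, so the HEY1 level there rests on few reads. DTX3L, a partner of Deltex proteins, was 13.2-fold, DLK1 2.88-fold and the corepressor TLE1 1.14-fold higher at 96 h. Between adherent cells and whole culture, DLK1 was 2.68-fold lower in the adherent cells, at 55.2 against 148 CPM.

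The genes whose course was most like that of 4 members were found by Pearson's r of log2(CPM + 0.5) over 10 libraries among 11905 genes with a mean of at least 5 CPM. These libraries share time points and treatment, so r is a description. For MFNG they were STING1, CARD10, CLEC11A and ARHGAP45, each with r = 0.94, and all 4 were higher in every vitamin C library than in any without. Within the pathway, MFNG had r = 0.86 with JAG2 and -0.75 with NOTCH2. For DLL4 they were MCCC2, SEL1L3 and EPAS1 (r = 0.99) and EFNB2, an arterial ephrin (r = 0.98). For NOTCH1 they were CHAC1 (0.99), CYP1A1 (0.98), DLL4 and KIF13B (0.97). For JAG1 they included FRMD6, BMP10 (0.96) and KIF3B (0.95), and JAG1 had r = -0.14 with JAG2.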

How the data were processed

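RNA sequencing libraries of H1-derived cells were grouped by sample titles. The authors deposited raw read counts per gene for 13 libraries. They deposited values read here as TPM for the 4 sorted libraries: they sum to 995020 to 996531 and fall against counts with gene length (log2 slope -0.68 over 11035 genes), their making is not stated and their depth is unknown. Per the submitters' processing notes DESeq 1.18.1, HTSeq 0.6.0, HISAT2 2.0.4 and SAMtools 1.3.1 were used, with hg38, also named GRCh38, as build and no roles stated.

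Counts were tested with edgeR 4.0.16 (TMM, filterByExpr, quasi-likelihood F test; R 4.3.3): vitamin C with time as a factor, 24 h against 0 h, and 1 slope per condition scaled to 60 h. Sorted cells were tested with limma 3.58.1 with trend on log2(TPM + 1), over genes with at least 1 TPM in 2 libraries. Every test was two-sided, and p-values were adjusted after Benjamini and Hochberg over the whole table, with a threshold of 0.05. With 1 library per condition and time, course p-values measure departures among single libraries across times. SEs come from the F statistic. Single counts have exact 95% Poisson intervals, log2 ratios of single libraries had 0.5 CPM added and a 95% interval from both counts by a normal approximation, and counted genes had at least 5 CPM in the higher library. These intervals cover counting error only, since reads carry no molecular identifiers. Lengths are GENCODE 29 exon bases. Scripts were tested on simulated data.

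Members and lists were chosen with earlier results of these data known. Named genes were all 10 members, pathway genes called for vitamin C (up to 8) or with the 5 smallest p among those called in each other course fit, up to 3 genes furthest up and down in single-library pairs, from 20 CPM in the higher one, and the 4 genes most like each of MFNG, JAG1, DLL4 and NOTCH1. Alternatives were DESeq2 1.42.0, its size factors, TMM-scaled totals for single libraries, no filter, no time term, time ranks, left-out libraries and pairs, other pseudocounts, quantile normalization, the descriptions' groups, a replicate block and transcript lengths. Some values that the rule for named genes would give are not reported here.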

Additional observations from a re-analysis of the deposited data

How the results depend on the processing

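MFNG kept its call for vitamin C under all 16 alternatives (2.26 to 2.51 on the log2 scale). These are not independent checks. With time as a factor, leaving out either library of a time, or both, gives nearly the same fit for vitamin C. JAG1, JAG2 and NOTCH2 kept theirs under 15, and lost it with no term for time, which called 28 genes in place of 955. Depth limits MFNG without vitamin C and the ligands at 96 h, which rest on few reads. No sorted-cell depth is known.

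Counts of genes called moved as follows. For vitamin C, no filter gave 1591 and leaving out the 60 h pair 620. For the slope with vitamin C (289), DESeq2 gave 712, no filter 438, time ranks 92 and no 0 h pair 1814. For the slope without (697), DESeq2 gave 1284 and no 0 h pair 2545. For the difference in slope (0), they gave 11 and 1. With 5 CPM added, 1224 genes in place of 1995 were 2-fold apart between 96 and 60 h and 111 in place of 282 between adherent cells and culture. Leaving out 1 library gave 505 to 1209 genes for vitamin C, 2961 to 5492 (5424 with all) for 24 h, 9 to 624 and 141 to 1025 for the slopes with and without vitamin C, 0 for their difference and 0 to 1 for sorted cells, the 1 without Vc+ replicate 1. The lowest counts came without the Vc- 48 h library (505), the Vc- 24 h library (2961), the Vc+ 0 h library (9) and the Vc- 0 h library (141). The cause was not tested.

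Sorted libraries of the same replicate number deviated together from the mean of their titled group (correlation 0.56). With 2 libraries per group both numbers must give this same value, so it is 1 value. Such libraries share only a number by the titles, but by the descriptions they share the vitamin C condition. The replicate block called 0 genes, with 1237 at an unadjusted p below 0.05. Groups from the descriptions called 156 genes, none of the 10, and turned the sign of DLL1 (-1.78), DLL4 (-0.95), JAG2 (-0.55), LFNG (-0.68), NOTCH1 (-0.65) and RFNG (-0.69). Quantile normalization turned NOTCH3 (0.029).

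No call reversed. Among uncalled values, NOTCH1 for vitamin C turned with no term for time (-0.019) and without the 0 h pair (-0.015). Without that pair, slopes with vitamin C turned for JAG1 (-0.66), JAG2 (-0.058) and NOTCH3 (2.35), and differences in slope for LFNG (0.24) and MFNG (-0.49). Leaving out 1 library also turned signs. For vitamin C, NOTCH1 ranged from -0.046 to 0.089. For 24 h, LFNG ranged from -0.34 to 0.019 and MFNG from -0.29 to 0.46. Slopes with vitamin C ranged from -0.66 to 1.28 for JAG1, -0.060 to 0.76 for JAG2, -1.20 to 2.32 for NOTCH3 and -0.20 to 1.44 for RFNG. Slopes without ranged from -0.92 to 3.91 for NOTCH3 and -0.011 to 1.73 for RFNG. Differences in slope ranged from -1.46 to 0.47 for JAG1, -0.63 to 0.18 for JAG2, -0.64 to 0.38 for LFNG, -0.13 to 0.59 for MFNG, -4.59 to 2.21 for NOTCH3 and -1.53 to 1.07 for RFNG. In sorted cells the ranges were -0.020 to 2.01 for DLL1, -0.26 to 0.47 for LFNG, -0.24 to 0.65 for NOTCH1, -1.30 to 0.0020 for NOTCH2, -0.51 to 0.32 for NOTCH3 and -0.084 to 0.70 for RFNG.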
